A study of Mus musculus with 18 samples.

Results

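The genes followed here were measured in the ovary of young F1 mice. They were chosen by symbol, 10 in all, as genes of blood vessel endothelium and of signalling by vascular endothelial growth factor (VEGF). The 10 genes are the ligands Vegfa, Vegfc and Angpt2, the VEGF receptors Kdr, Flt1 and Flt4, the angiopoietin receptor Tek with its relative Tie1, and the junction proteins Pecam1 and Cdh5. All 10 were present among the 30172 gene symbols of every file, and all were above 0 in all 18 libraries.

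The dams of the F1-HHcy group ate a high-methionine diet with 3% methionine, which raises homocysteine (hyperhomocysteinemia, HHcy). The dams of the F1-Control group ate normal chow. By the labels the diet began 4 weeks before mating and lasted through gestation and lactation, and the pups were exposed only through their mothers. The paper gives a longer time on the diet before mating than the labels do. Whole ovaries of wild-type C57BL/6J females were taken at postnatal day 3 (Pd3), Pd7 or Pd21, with 3 libraries for each diet and day, which makes 6 groups. Pd3 and Pd7 are batch 1 in the labels and Pd21 is batch 2, so each comparison of diets lay within a batch, while age and batch cannot be told apart wherever Pd21 is set against Pd7. Whether a library held 1 pup or several is not given, and the p-values measure the spread between these libraries.

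Levels are in FPKM, fragments per unit of gene length and of library size, so that levels can be compared between genes. Libraries held 33630641 to 39399281 fragments on genes. The 10 genes had between 69 fragments (Angpt2 in an F1-Control Pd3 library) and 5422 fragments (Kdr in an F1-HHcy Pd3 library). Differences between diets are F1-HHcy minus F1-Control on the log2(FPKM + 1) scale with the standard error (SE) from limma, which understates the change of genes near 1 FPKM. A gene was called when the adjusted p (Benjamini-Hochberg, over all genes tested that day) was below 0.05, and only genes that reached 1 FPKM in 3 or more of a day's 6 libraries were tested. F1-HHcy Pd3 replicate 3 stood apart, with the early response gene Fos at 818 FPKM against 26.6 to 59.7 FPKM in the other 5 Pd3 libraries, and its mean correlation with the other 2 libraries of its group was 0.947, the lowest of the 18. Results at Pd3 are therefore also given without it. F1-HHcy Pd7 replicate 3 also had the highest Fos of its day, at 93.5 FPKM against 0.902 to 5.71 FPKM in the other 5 libraries.

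Blood vessels grow from endothelial cells that read gradients of secreted VEGF ligands. VEGF-A, which hypoxic tissue and granulosa cells secrete, acts through KDR (VEGFR2), the main signalling receptor of blood vessel endothelium. FLT1 (VEGFR1) binds VEGF-A tightly and signals weakly, and its soluble form works as a decoy. VEGF-C acts through FLT4 (VEGFR3) and is best known for driving lymphatic vessel growth. Angiopoietin 1 activates the receptor TEK (TIE2) and stabilises vessels, whereas angiopoietin 2, the product of Angpt2, mostly opposes it and loosens vessels for remodelling. TIE1 pairs with TEK. PECAM1 and VE-cadherin (CDH5) hold endothelial cells together at their junctions. In the ovary, vessels enter with the stroma and later form a capillary wreath in the theca around growing follicles, while primordial follicles have no vessels of their own.

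The 10 genes lie on 5 chromosomes of GRCm38 (GENCODE M21): Tek at chr4:94739289-94874976, Tie1 at chr4:118471191-118490061, Kdr at chr5:75932827-75978458, Flt1 at chr5:147561604-147726011, Angpt2 at chr8:18690263-18741562, Vegfc at chr8:54077606-54187096, Cdh5 at chr8:104101625-104144511, Flt4 at chr11:49609263-49652739, Pecam1 at chr11:106654217-106750628 and Vegfa at chr17:46016993-46032369. None of them shares exonic bases with another annotated gene on either strand. Each value covers all transcripts of a gene, so the membrane-bound and soluble forms of Flt1 were not separated.

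Promoters were looked at because several of these genes moved together. RefSeq starts (GRCm38.p6) were matched for 7 of the 10 genes, Vegfa with 2 of them, and none was matched for Pecam1, Cdh5 and Angpt2. The 250 bases before each start were searched on both strands, counting overlapping matches. The core of motifs of ETS factors, a family that is active in endothelial genes, was searched in a form with the letters CGGAAG, which 13.6% of all 32851 promoter windows of that length held, and in a form with the letters AGGAAG, which 29.5% held, while 39.2% held either form. The core of the hypoxia response element was searched with the letters ACGTG, which 16.6% of the windows held, and with the letters GCGTG, which 28.2% held. ETS cores were found in the windows of Tie1 (1 of each form) and Flt1 (2 of the second form). The second form of the hypoxia core was found in those of Kdr (2) and Flt1 (1). The window of 1 of the Vegfa starts held 1 of each form of the hypoxia core, and this window (chr17:46025164-46025413) lies inside the annotated gene. The windows of Tek, Vegfc, Flt4 and the other Vegfa start held none of the 4 cores, and that of Flt4 (chr11:49609429-49609678) also lies inside its gene. The following 4 set Tie1, Flt1 and Kdr, which held matches, beside Vegfc, the ligand with the smallest p at Pd7. The Vegfa window with matches is not shown because it lies inside the gene. Each is written 5′ to 3′ along the gene, with the matches in capitals, and stops where either annotation has a transcript begin.
Tie1, chr4:118490062-118490099, minus strand: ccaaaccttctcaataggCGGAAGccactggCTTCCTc
Flt1, chr5:147726012-147726261, minus strand: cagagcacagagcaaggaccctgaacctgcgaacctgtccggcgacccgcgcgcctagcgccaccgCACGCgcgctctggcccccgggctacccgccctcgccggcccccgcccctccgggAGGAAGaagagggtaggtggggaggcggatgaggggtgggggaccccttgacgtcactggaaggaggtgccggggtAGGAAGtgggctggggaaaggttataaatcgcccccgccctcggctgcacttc
Kdr, chr5:75978459-75978705, minus strand: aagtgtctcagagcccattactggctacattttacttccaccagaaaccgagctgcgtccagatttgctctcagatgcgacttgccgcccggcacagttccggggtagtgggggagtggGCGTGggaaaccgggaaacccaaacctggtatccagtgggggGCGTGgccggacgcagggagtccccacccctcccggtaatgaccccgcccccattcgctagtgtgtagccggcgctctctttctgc
Vegfc, chr8:54077282-54077531, plus strand: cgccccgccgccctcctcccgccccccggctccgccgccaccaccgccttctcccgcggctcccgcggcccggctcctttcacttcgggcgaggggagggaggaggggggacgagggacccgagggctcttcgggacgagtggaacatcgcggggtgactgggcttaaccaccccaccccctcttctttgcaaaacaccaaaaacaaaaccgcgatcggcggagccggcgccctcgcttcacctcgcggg
These matches describe the sequence only, and whether a factor binds there was not measured.

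Averaged over all 18 libraries, Vegfa had the highest level of the 10 genes (22.3 FPKM), followed by Cdh5 (16.6), Pecam1 (16.4), Kdr (9.34), Tie1 (6.81), Tek (4.87), Vegfc (4.22), Angpt2 (3.56), Flt4 (3.07) and Flt1 (0.916). The neighbours in this order overlapped over the libraries in every case, and Cdh5 and Pecam1 were nearly level. The receptor Flt1 was thus an order of magnitude below its relative Kdr in level per length, and it was the only member that was too low to be tested at Pd3. The defining endothelial genes Pecam1, Cdh5, Tie1 and Kdr were above 2 FPKM in all libraries, so vessel RNA was present in each ovary sample.

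**Figure D1:**
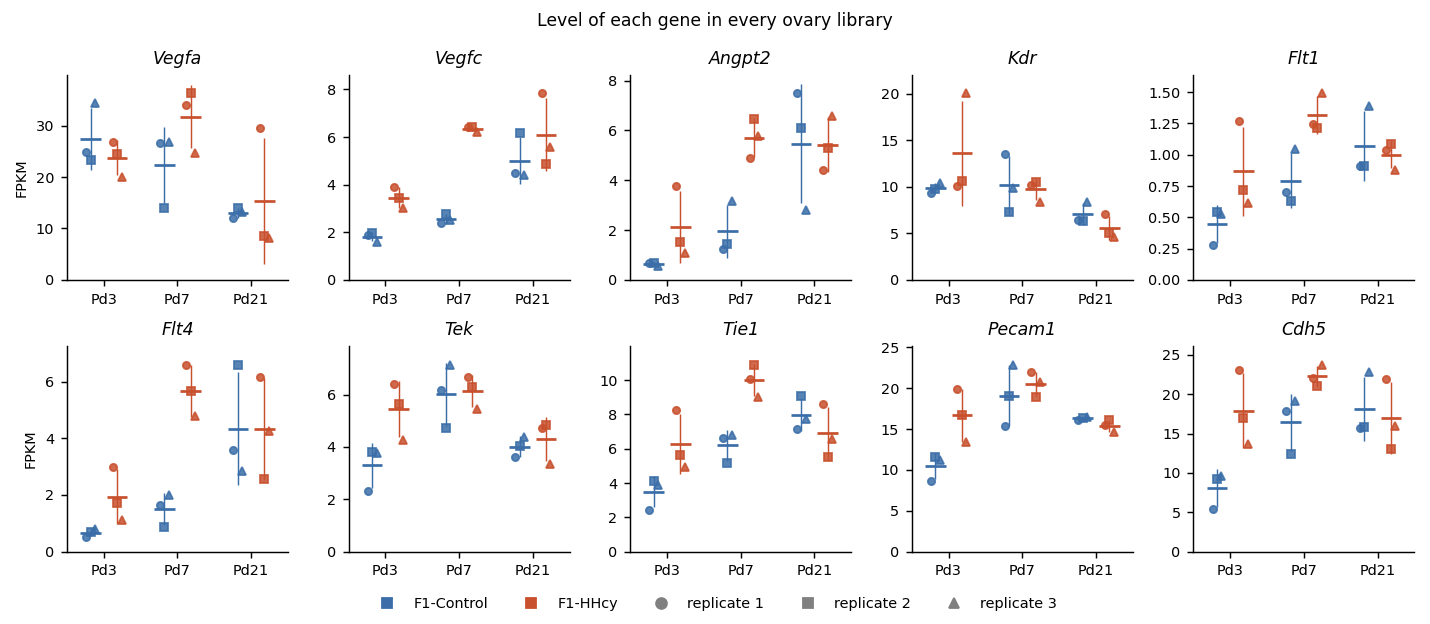
FPKM (y axis) of the 10 genes by day (x axis) in F1-Control (blue) and F1-HHcy (orange) libraries, with a symbol per replicate number, a bar at the group mean and a line of ± 1 SD (n = 3). At Pd3, 8 of the 10 genes have all orange points above all blue ones, Vegfc at Pd7 sits at 6.23 to 6.42 in F1-HHcy against 2.40 to 2.78 in F1-Control, and at Pd21 the groups overlap for all 10 genes.

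Between the diets, the members called and the overlap of the groups were not the same on each day. Whether the effect of the diet differed between days is tested further on. At Pd3, most of them were higher in F1-HHcy ovaries, but none passed the adjusted threshold. At Pd7, the ligands Vegfc and Angpt2 and the receptors Flt4 and Tie1 rose in F1-HHcy, while Kdr, Tek and Pecam1 stayed within 0.12 of equality on the log2 scale. At Pd21, the diets overlapped for every member.

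At Pd3, 9 of the 10 members could be tested with limma, and 0 were called, beside 1.64% of the 13277 tested genes called higher and 1.43% called lower. Unadjusted, 7 members had p under 0.05, all of them higher in F1-HHcy. These 7 also met the cut-off by which the study drew its volcano plots (unadjusted p under 0.05 and a log2 difference above 0.58). So did 5.00% of all tested genes in that direction. The cut-off was applied here to limma results on the log2(FPKM + 1) scale, not to the study's own fold changes. In 8 of the 10 members every F1-HHcy library lay above every F1-Control library, which held for 11.8% of the tested genes. Flt4 and Angpt2 were tested only because the 3 F1-HHcy libraries reached 1 FPKM, so they had to differ, and the counts include them. limma-voom on recovered fragments also called 0 members. When all 18 libraries shared 1 estimate of the spread, Tie1, Pecam1, Cdh5 and Vegfc were called (3.14% of 14607 genes were called higher there). Without F1-HHcy Pd3 replicate 3, 7 members could be tested and 5 of them, Cdh5, Pecam1, Tek, Tie1 and Vegfc, were called higher, in a fit that called 9.34% of 13049 genes higher. That library was the lowest of its group for each of these 5 genes, so leaving it out raised their differences. Each of the other fits that left out 1 library called 0 members.

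At Pd7, 4 of the 10 members rose and 0 fell, against 5.88% of 13299 tested genes called higher and 5.98% called lower. The study's criterion gave the same count of 4, beside 9.06% of all genes in that direction. The groups did not overlap for 6 members, with F1-HHcy above, as for 19.5% of all tested genes. With no filter on low values, the number of members called fell from 4 to 1, and Vegfc alone passed (adjusted p = 0.0445), while the calls over all genes went from 1577 to 91. At Pd21, 0 members were called by limma and 0 by limma-voom, none had an unadjusted p under 0.05, and none had groups that did not overlap. Over all 13350 genes tested at Pd21, 0% were called higher and 2.23% lower, 0.0824% met the study's criterion in the upward direction, and 1.92% had all F1-HHcy libraries above all F1-Control libraries. The median difference over all tested genes was -0.03 at Pd3, -0.00 at Pd7 and -0.01 at Pd21 on the log2 scale, and the median over the members tested was 0.66, 0.48 and -0.03.

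**Figure D2:**
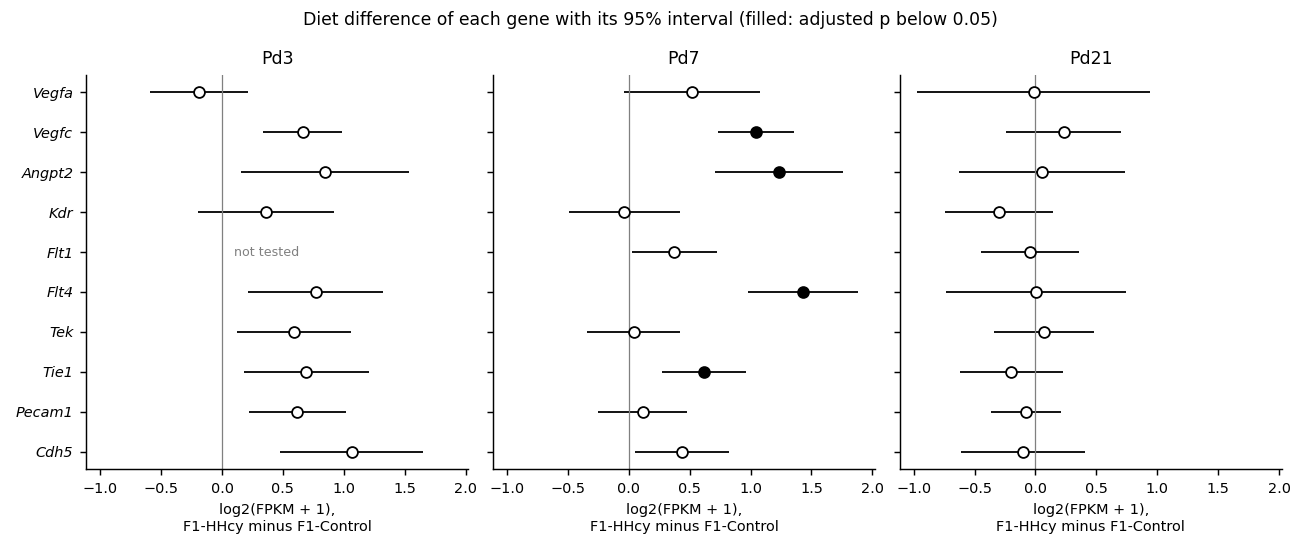
Difference between diets on the log2(FPKM + 1) scale (x axis, F1-HHcy minus F1-Control) for each gene (y axis) on each day, with its 95% interval from limma and filled points for adjusted p below 0.05. Filled points appear only at Pd7, for Vegfc, Angpt2, Flt4 and Tie1, and Flt1 was not tested at Pd3.

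Of the ligands, Vegfa did not separate the diets on any day. At Pd3 it was at 24.8, 23.3 and 34.3 FPKM in F1-Control and at 26.9, 24.4 and 20.1 FPKM in F1-HHcy. At Pd7 the F1-Control libraries held 26.6, 13.9 and 26.7 FPKM and the F1-HHcy libraries 34.1, 36.3 and 24.7 FPKM. The low value belongs to F1-Control Pd7 replicate 2, and the highest F1-Control library lay above the lowest F1-HHcy library. The difference was -0.19 (SE 0.17) at Pd3 and 0.52 (SE 0.25, adjusted p = 0.182) at Pd7, with a 95% interval at Pd7 of -0.04 to 1.08. At Pd21 Vegfa stood at 12.0, 13.9 and 13.1 FPKM in F1-Control and at 29.6, 8.48 and 8.16 FPKM in F1-HHcy. F1-HHcy replicate 1 thus carried more than 3 times the Vegfa of its group's other libraries. The summed level of the granulosa marker list was 1030 FPKM in that library, against 1520 and 1330 FPKM in the others of its group and 1010 to 1270 FPKM in F1-Control. Foxl2, a gene of that list, went the other way. It was at 195 FPKM in that library, against 71.4 and 97.5 FPKM in the others of its group and 84.5 to 127 FPKM in F1-Control. The part of that library's cell makeup in its Vegfa level was not tested.

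Vegfc, the lymphatic growth factor, had the smallest p of the 10 genes at both Pd3 and Pd7. It was at 1.89, 1.96 and 1.59 FPKM in F1-Control and at 3.90, 3.44 and 3.02 FPKM in F1-HHcy at Pd3. At Pd7 it was at 2.40, 2.78 and 2.51 FPKM in F1-Control and at 6.42, 6.42 and 6.23 FPKM in F1-HHcy. On both days the groups were apart by more than their own range. The difference was 0.66 (SE 0.14, adjusted p = 0.0522) at Pd3, just outside the threshold, and 1.05 (SE 0.14, adjusted p = 0.00336) at Pd7, a ratio of mean FPKM of 2.48. Vegfc was called at Pd7 in all 6 fits that left out 1 library, with adjusted p between 0.00432 and 0.0218. At Pd21 the groups overlapped, with 4.48, 6.16 and 4.41 FPKM against 7.84, 4.88 and 5.59 FPKM in F1-HHcy. That difference was 0.23 (SE 0.21, 95% interval -0.24 to 0.70, adjusted p = 1).

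Angpt2, the vessel-destabilising angiopoietin, started near the detection filter. F1-Control Pd3 libraries held 0.670, 0.674 and 0.552 FPKM and F1-HHcy Pd3 libraries 3.79, 1.51 and 1.09 FPKM, a spread of more than 3-fold within the F1-HHcy group. At Pd7 the values were 1.24, 1.45 and 3.18 FPKM in F1-Control and 4.88, 6.46 and 5.79 FPKM in F1-HHcy. All F1-HHcy libraries lay above all F1-Control libraries on both days. The difference at Pd7 was 1.23 (SE 0.23, adjusted p = 0.0116), and 0.85 (SE 0.30, adjusted p = 0.154) at Pd3. Leaving out F1-Control replicate 2 ended the Pd7 call (adjusted p = 0.0543), and it held in the other 5 fits without a library, by a small margin without F1-HHcy replicate 3 (0.05 after rounding). At Pd21 Angpt2 was at 7.50, 6.09 and 2.82 FPKM in F1-Control and at 4.41, 5.29 and 6.59 FPKM in F1-HHcy, which overlap fully.

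Of the VEGF receptors, Kdr overlapped between the diets on every day. At Pd3 it was at 9.38, 9.80 and 10.4 FPKM in F1-Control and at 10.1, 10.6 and 20.1 FPKM in F1-HHcy. The single high value is F1-HHcy replicate 3, the library with high Fos. The difference of 0.36 (SE 0.24, adjusted p = 0.409) became 0.06 (SE 0.11, adjusted p = 0.713) without that library. At Pd7 Kdr was at 13.5, 7.33 and 9.86 FPKM in F1-Control and at 10.2, 10.5 and 8.42 FPKM in F1-HHcy. The F1-HHcy values lay inside the F1-Control range, and the difference was -0.04 (SE 0.21, 95% interval -0.49 to 0.42). At Pd21 the levels were 6.47, 6.29 and 8.39 FPKM in F1-Control and 7.06, 5.04 and 4.63 FPKM in F1-HHcy, with a difference of -0.30 (SE 0.19, adjusted p = 1).

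Flt1, the high-affinity VEGF-A receptor, was the lowest of the 10 genes. At Pd3 F1-Control libraries held 0.275, 0.543 and 0.523 FPKM (135, 271 and 256 fragments) and F1-HHcy libraries 1.27, 0.719 and 0.612 FPKM (643, 359 and 294 fragments). The groups did not overlap, and the ratio of the means was 1.94, but the gene was below the filter and has no test. At Pd7 it was at 0.700, 0.631 and 1.05 FPKM in F1-Control and at 1.24, 1.21 and 1.49 FPKM in F1-HHcy. The difference of 0.38 (SE 0.16) had an adjusted p of 0.137, although the groups did not overlap. Flt1 passed the filter at Pd7 only with the F1-HHcy libraries, and the count of members without overlap on that day includes it. At Pd21 the values were 0.909, 0.913 and 1.39 FPKM in F1-Control and 1.04, 1.08 and 0.876 FPKM in F1-HHcy.

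Flt4, the receptor of VEGF-C that marks lymphatic endothelium and sprouting vessels, showed the largest difference of any member. At Pd3 it was at 0.525, 0.683 and 0.800 FPKM in F1-Control and at 2.99, 1.71 and 1.12 FPKM in F1-HHcy. At Pd7 it was at 1.64, 0.882 and 1.99 FPKM in F1-Control and at 6.58, 5.65 and 4.77 FPKM in F1-HHcy. The lowest F1-HHcy library at Pd7 was more than 2 times the highest F1-Control library. The difference was 0.77 (SE 0.24, adjusted p = 0.120) at Pd3 and 1.43 (SE 0.20, adjusted p = 0.00403) at Pd7, where it passed in all 6 fits without a library (adjusted p 0.00167 to 0.0218). It did not pass with no filter on low values (adjusted p = 0.0590). Flt4 also appears in a heatmap that the study drew from these libraries, so its direction at Pd7 is not independent evidence. At Pd21 the groups overlapped fully, with 3.59, 6.59 and 2.83 FPKM in F1-Control and 6.17, 2.56 and 4.27 FPKM in F1-HHcy, and the wide 95% interval of -0.73 to 0.74 leaves room for sizeable differences.

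Tek, the angiopoietin receptor, was higher in F1-HHcy at Pd3 and level with F1-Control afterwards. At Pd3 it was at 2.31, 3.81 and 3.78 FPKM in F1-Control and at 6.40, 5.65 and 4.27 FPKM in F1-HHcy, without overlap. At Pd7 it was at 6.17, 4.72 and 7.13 FPKM in F1-Control and at 6.67, 6.30 and 5.46 FPKM in F1-HHcy. The difference was 0.59 (SE 0.20, adjusted p = 0.144) at Pd3 and 0.04 (SE 0.17, 95% interval -0.34 to 0.42) at Pd7. At Pd21 the values were 3.60, 4.05 and 4.39 FPKM in F1-Control and 4.73, 4.85 and 3.33 FPKM in F1-HHcy.

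Tie1, the partner of TEK that is made almost only by endothelium, stayed higher in F1-HHcy at Pd7. At Pd3 it was at 2.45, 4.13 and 3.89 FPKM in F1-Control and at 8.26, 5.66 and 4.92 FPKM in F1-HHcy. At Pd7 it was at 6.65, 5.15 and 6.78 FPKM in F1-Control and at 10.1, 10.9 and 9.04 FPKM in F1-HHcy. The groups were apart on both days. The difference was 0.69 (SE 0.22, adjusted p = 0.129) at Pd3 and 0.62 (SE 0.16, adjusted p = 0.0335) at Pd7. The Pd7 call was the weakest of the 4, since it was lost in 5 of the 6 fits without a library (adjusted p 0.0373 to 0.142 over the 6). At Pd21 F1-Control held 7.15, 9.05 and 7.76 FPKM and F1-HHcy 8.59, 5.54 and 6.58 FPKM.

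The junction genes Pecam1 and Cdh5 are the members most used to mark endothelium. Pecam1 was at 8.67, 11.6 and 11.2 FPKM in F1-Control and at 19.9, 16.8 and 13.4 FPKM in F1-HHcy at Pd3. It was at 15.4, 19 and 22.8 FPKM in F1-Control and at 21.9, 18.9 and 20.7 FPKM in F1-HHcy at Pd7. The groups were apart at Pd3 and overlapped at Pd7. The difference was 0.62 (SE 0.17, adjusted p = 0.0949) at Pd3 and 0.11 (SE 0.16, adjusted p = 0.659) at Pd7. At Pd21 the Pecam1 values were the most even of all members, with 16.1, 16.3 and 16.5 FPKM in F1-Control and 15.4, 16.1 and 14.7 FPKM in F1-HHcy, and the 95% interval of that difference was -0.36 to 0.21.

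Cdh5, which codes for VE-cadherin, had the largest difference of the members tested at Pd3 on the log2(FPKM + 1) scale. It was at 5.37, 9.29 and 9.64 FPKM in F1-Control and at 23.1, 17.0 and 13.6 FPKM in F1-HHcy, a ratio of the means of 2.21. The difference of 1.06 (SE 0.25) missed the threshold with an adjusted p of 0.0640, and without F1-HHcy replicate 3 it was 1.23 (SE 0.24, adjusted p = 0.0108). At Pd7 Cdh5 was at 17.8, 12.4 and 19.2 FPKM in F1-Control and at 22.1, 21.0 and 23.7 FPKM in F1-HHcy. The groups did not overlap, and the difference was 0.44 (SE 0.17, adjusted p = 0.122). At Pd21 the values were 15.7, 15.8 and 22.9 FPKM in F1-Control and 22.0, 13.0 and 15.9 FPKM in F1-HHcy.

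With 3 libraries against 3, the smallest 2-sided p of an exact permutation test is 0.1, so these calls rest on the spread that limma shares between genes. In whole ovaries, a change in the number of endothelial cells and a change in RNA per endothelial cell cannot be told apart.

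The members called between ages were not the same under the 2 diets, and whether the diets differed is tested further on. In F1-Control ovaries, Pecam1, Cdh5, Tek and Tie1 rose between Pd3 and Pd7, while Kdr differed by 0.01 (SE 0.23), and Flt4, Vegfc and Angpt2 rose between Pd7 and Pd21. In F1-HHcy ovaries, Flt4, Vegfc and Angpt2 rose between Pd3 and Pd7, and Kdr and Vegfa fell between Pd7 and Pd21. These comparisons share libraries with each other and with the comparisons of diets, so they are not separate evidence, and they come from 1 model of all 18 libraries with 14607 genes.

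Between Pd3 and Pd7 in F1-Control, Pecam1 rose by 0.80 (SE 0.15, adjusted p = 0.00433), Cdh5 by 0.95 (SE 0.24, adjusted p = 0.0197), Tek by 0.71 (SE 0.19, adjusted p = 0.0234) and Tie1 by 0.69 (SE 0.19, adjusted p = 0.0317), that is 4 of 10 members beside 5.27% of all genes. Pecam1 alone passed without F1-Control Pd3 replicate 1 or without F1-Control Pd7 replicate 3. In F1-HHcy over the same days, Flt4 rose by 1.22 (SE 0.29, adjusted p = 0.0283), Vegfc by 0.73 (SE 0.16, adjusted p = 0.0197) and Angpt2 by 1.19 (SE 0.31, adjusted p = 0.0390), or 3 of 10 members beside 2.29% of all genes. None of these 3 passed when any of F1-HHcy Pd3 replicates 2 and 3 or F1-HHcy Pd7 replicates 1 and 2 was left out, and with no filter on low values only Vegfc did.

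Between Pd7 and Pd21, which also differ in batch, Flt4 rose by 1.06 (SE 0.29, adjusted p = 0.0114), Vegfc by 0.74 (SE 0.16, adjusted p = 0.00222) and Angpt2 by 1.11 (SE 0.31, adjusted p = 0.0137) in F1-Control, beside 18.2% of all genes called higher. No member fell there, beside 12.1% called lower, and without F1-Control Pd21 replicate 2 only Vegfc passed. In F1-HHcy no member rose (10.4% of all genes did). Kdr fell by 0.72 (SE 0.23, adjusted p = 0.0393) and Vegfa fell by 1.22 (SE 0.35, adjusted p = 0.0248), beside 9.19% of genes called lower. Both calls were lost when F1-HHcy Pd7 replicate 1 or 2 or F1-HHcy Pd21 replicate 2 or 3 was left out, and also with no filter on low values.

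Set side by side, some levels of F1-HHcy at Pd3 were near those of F1-Control at Pd7. The mean of Tie1 was 6.28 ± 1.75 FPKM (SD, n = 3) in F1-HHcy at Pd3 and 6.19 ± 0.91 FPKM in F1-Control at Pd7. Cdh5 was at 17.9 ± 4.8 and 16.4 ± 3.6 FPKM, Pecam1 at 16.7 ± 3.3 and 19.1 ± 3.7 FPKM, Tek at 5.44 ± 1.08 and 6.01 ± 1.22 FPKM, and Angpt2 at 2.13 ± 1.45 and 1.96 ± 1.06 FPKM in the same order. Each of these differences was smaller than the SD of either group. Vegfc did not follow, with 3.46 ± 0.44 and 2.56 ± 0.20 FPKM. F1-HHcy at Pd7 and F1-Control at Pd21 had means of 5.71 ± 0.79 and 5.47 ± 2.40 FPKM for Angpt2, while Vegfc was apart, at 6.36 ± 0.11 and 5.01 ± 0.99 FPKM. These pairs differ in age and diet at once, they were chosen after the values were seen, and no test was made of them.

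Whether the effect of the diet itself differed between days was tested as the difference of differences. Between Pd3 and Pd7, limma called 0 of 10 members, beside 0.411% of all genes, and 1 member had an unadjusted p under 0.05 (Pecam1, -0.50, SE 0.22). Between Pd7 and Pd21, 1 member was called, beside 3.89% of all genes. The diet effect on Vegfc was smaller at Pd21 by 0.82 (a difference of -0.82, SE 0.22, adjusted p = 0.0478). For Flt4 the difference was -1.43 (SE 0.41, adjusted p = 0.0600). The Vegfc call stood close to the threshold and was lost with the replicate number as a block (adjusted p = 0.0554), with median-ratio scaling (0.0520), with no filter on low values (0.0720) and without any library of the 4 groups (0.065 to 0.121) other than F1-HHcy Pd21 replicate 1. Without that library Vegfc had an adjusted p of 0.00823, and 4 members passed (Flt4, Tie1, Vegfa and Vegfc).

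Ratios within a library separate the members from each other without reference to total endothelial RNA. The pairs were chosen after the values were seen, and no test is given for them. Flt4 relative to Pecam1 was 0.0591 to 0.0716 in F1-Control and 0.0836 to 0.151 in F1-HHcy at Pd3, without overlap. At Pd7 it was 0.0464 to 0.107 in F1-Control and 0.230 to 0.300 in F1-HHcy, also without overlap. At Pd21 the ranges were 0.171 to 0.404 and 0.159 to 0.400. Tie1 relative to Tek was 0.950 to 1.09 in F1-Control and 1.51 to 1.73 in F1-HHcy at Pd7, whereas at Pd3 the ratio was 1.03 to 1.08 and 1.00 to 1.29. At Pd21 it was 1.77 to 2.24 in F1-Control and 1.14 to 1.98 in F1-HHcy, which overlap. The 2 TIE receptors were therefore at near-equal levels per length in young F1-Control ovaries, with Tie1 ahead in F1-HHcy at Pd7 and in both diets at Pd21.

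Angpt2 relative to its receptor Tek was 0.202 to 0.446 in F1-Control and 0.732 to 1.06 in F1-HHcy at Pd7, whereas the diets overlapped at Pd3 (0.146 to 0.291 and 0.256 to 0.592) and at Pd21 (0.644 to 2.08 and 0.932 to 1.98). Kdr relative to Flt1 ran from 18.1 to 34.1 in F1-Control at Pd3, from 9.42 to 19.3 at Pd7 and from 6.02 to 7.12 at Pd21. In F1-HHcy it was 7.95 to 32.8 at Pd3 and 4.65 to 6.80 at Pd21, which overlap F1-Control, and 5.64 to 8.66 at Pd7, below every F1-Control library of that day. Vegfc relative to Vegfa overlapped at Pd7 (0.0902 to 0.2 in F1-Control and 0.177 to 0.252 in F1-HHcy). It did not overlap at Pd3 (0.0463 to 0.0842 and 0.141 to 0.15). Cdh5 relative to Kdr and Angpt2 relative to Angpt1 overlapped at Pd3 and Pd21 and did not at Pd7.

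**Figure D3:**
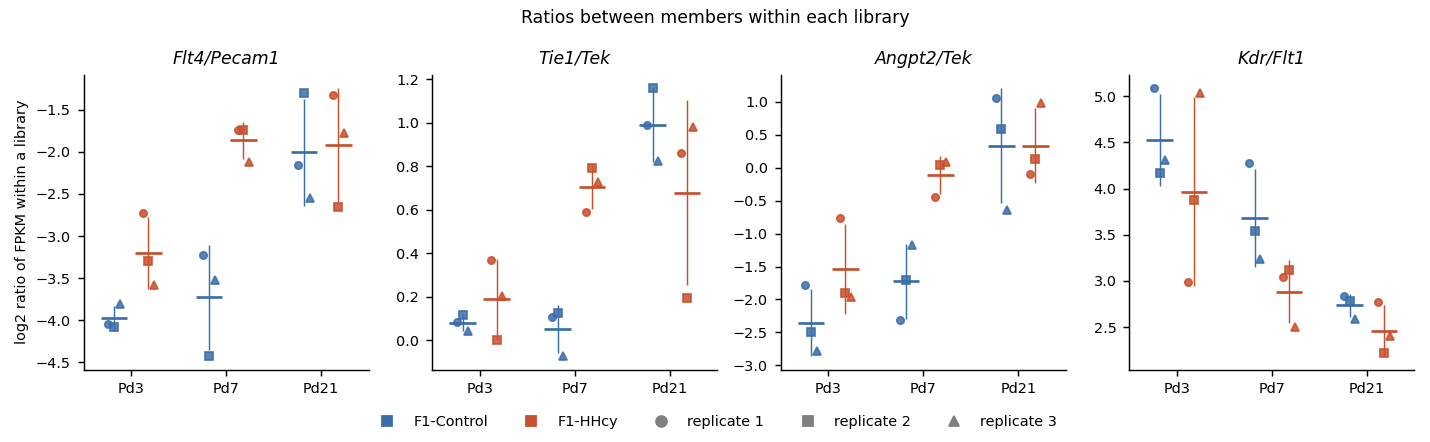
Ratio of FPKM of 2 genes within each library (y axis, log2) by day (x axis) in F1-Control (blue) and F1-HHcy (orange), with a symbol per replicate number, a bar at the mean and a line of ± 1 SD (n = 3). The 4 ratios shown were chosen after the values were seen. At Pd7 the diets do not overlap for any of these 4, and Tie1 to Tek averages 0.05 in F1-Control and 0.70 in F1-HHcy.

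Other genes of the pathway were read from lists of ligands, receptors and signal transducers. All calls of list genes at Pd3 depend on the processing, since the 408 genes called at Pd3 went to 0 with no filter on low values. Leaving out F1-Control replicate 1 gave 0 calls, leaving out F1-Control replicate 2 gave 1, and leaving out F1-HHcy replicate 3 gave 2824. Of the 8 VEGF and angiopoietin ligands in the files, 7 were tested, and 0 were called at Pd3, 3 rose at Pd7 and 0 were called at Pd21. Without F1-HHcy Pd3 replicate 3, 4 of the 6 then tested were called higher at Pd3. The third gene at Pd7 beside Vegfc and Angpt2 was Vegfd, the other ligand of FLT4, with means of 2.27 ± 1.05 FPKM in F1-Control and 4.89 ± 0.45 FPKM in F1-HHcy and a difference of 0.90 (SE 0.23, adjusted p = 0.0341). Vegfb, the ligand of FLT1 with the highest level of the list, differed by 0.09 (SE 0.14). Angpt1, the agonist of TEK, was at 5.22 ± 2.14 and 8.42 ± 3.01 FPKM at Pd7 with a difference of 0.61 (SE 0.30, adjusted p = 0.195).

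Among receptors and coreceptors, Nrp2 and Nrp1 rose at Pd3. Nrp2, the neuropilin that assists VEGF-C at FLT4, was at 1.98 ± 0.27 FPKM in F1-Control and 7.64 ± 1.17 FPKM in F1-HHcy, a difference of 1.53 (SE 0.15, adjusted p = 0.0142). Nrp1, which assists KDR, was at 3.25 ± 0.60 and 6.32 ± 1.02 FPKM, a difference of 0.78 (SE 0.16, adjusted p = 0.0490). Of 8 receptors and coreceptors, 2 of 7 tested rose at Pd3, 2 of 8 at Pd7 (Flt4 and Tie1) and 0 of 8 at Pd21, and without F1-HHcy Pd3 replicate 3 the count at Pd3 was 5 of 6. Of the 23 genes of VEGF receptor signal transduction tested at Pd3, 0 were called (1 lower without F1-HHcy replicate 3), with 8 above and 15 below equality and a median of -0.05, and of the 23 tested at Pd7 the only call was Hspb1, a heat shock protein that acts downstream of p38 kinase, which fell by 0.89 (SE 0.23, adjusted p = 0.0354).

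Pan-endothelial markers that are not among the 10 genes were mostly higher in F1-HHcy at Pd3. Of 19 such genes in the files, 18 were tested, 2 rose (Eng, a TGF-beta coreceptor, and Cd34, a surface sialomucin that stromal cells also carry), and all 18 had positive differences with a median of 0.53. Over all genes at Pd3, 45.5% of differences were positive. Their summed level was 117 to 145 FPKM in F1-Control and 174 to 275 FPKM in F1-HHcy, and F1-HHcy replicate 3 was the lowest of the latter. Without that library, 14 of the 17 then tested rose, with a median of 0.74. At Pd7 2 of 19 rose, with a median of 0.20, and at Pd21 0 of 18 were called, with a median of -0.11. Between Pd3 and Pd7 in F1-Control 11 of the 19 rose.

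Several lymphatic endothelial markers rose at Pd7, as Flt4 did. Of the 7 that are not members, 4 rose at Pd7: Ccl21a, a chemokine of lymphatic vessels, by 2.75 (SE 0.20, adjusted p = 0.000794), Mmrn1 by 2.11 (SE 0.23, adjusted p = 0.00138), the hyaluronan receptor Lyve1 by 1.17 (SE 0.21, adjusted p = 0.00937) and Prox1, the lymphatic master regulator, by 0.65 (SE 0.17, adjusted p = 0.0404). Prox1 was at 0.808 ± 0.223 FPKM in F1-Control and 1.85 ± 0.46 FPKM in F1-HHcy. It passed the filter of 1 FPKM only with the F1-HHcy libraries, so its rise was partly set by the filter, and the count of 4 includes it. Pdpn and Reln differed by -0.33 (SE 0.15) and 0.49 (SE 0.15) and were not called, and neither was Itga9. Other ovarian cells also use Pdpn and Reln, and macrophages also carry Lyve1. At Pd3 1 of 6 rose (Itga9), with 3 above and 3 below equality and a median of 0.39. Without F1-HHcy Pd3 replicate 3, 2 of 5 rose, with a median of -0.12. At Pd21 0 of 7 were called.

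Of the arterial and tip cell markers, 0 of 9 tested were called at Pd3, with a median of 0.07. Without F1-HHcy replicate 3, 2 of the 9 were called higher and 1 lower, with a median of 0.30. At Pd7 the only call among 10 was Hey1, a Notch target, which fell by 0.93 (SE 0.20, adjusted p = 0.0170). Of the venous markers, 1 of 3 tested rose at Pd3 (2 of 3 without F1-HHcy replicate 3), 2 of 4 rose at Pd7 and 0 of 4 were called at Pd21. Vcam1, an adhesion molecule that other cells also carry, rose at Pd7 from 1.78 ± 1.21 to 8.77 ± 0.97 FPKM, a difference of 1.90 (SE 0.27, adjusted p = 0.00456). Nr2f2 (COUP-TFII), a transcription factor of veins, lymphatics and ovarian stroma, rose by 0.89 (SE 0.18, adjusted p = 0.0475) at Pd3 and by 0.74 (SE 0.17, adjusted p = 0.0242) at Pd7. Among 16 hypoxia target genes, of which Vegfa is 1, 0 were called at Pd3 (2 higher and 1 lower without F1-HHcy replicate 3) and 4 fell at Pd7 (Ankrd37, Car9, Pdk1 and Egln3), with a median of -0.27.

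Markers of other cell types moved on the same days. At Pd3, 4 of 8 stromal markers rose (7 of 8 without F1-HHcy replicate 3), and the summed level of the list was 755 to 1020 FPKM in F1-Control and 1370 to 1660 FPKM in F1-HHcy. All 9 erythroid markers fell at Pd3, with or without that library, with a summed level of 3950 to 11300 FPKM in F1-Control and 785 to 1110 FPKM in F1-HHcy. Of 12 oocyte markers at Pd3, 2 rose and 0 fell, with a median of -0.39. Their sums were 824 to 1050 FPKM in F1-Control and 1270 to 1730 FPKM in F1-HHcy. Of the 7 granulosa markers tested at Pd3, 2 rose, and the list summed to 248 to 266 FPKM and 293 to 566 FPKM. Without F1-HHcy replicate 3, 5 oocyte markers rose and 7 fell, and 4 granulosa markers rose and 1 fell. Mural cell markers, the sheath of small vessels, had 1 of 12 rise at Pd3 (Pdgfrb, 1.07, SE 0.17, adjusted p = 0.0285), and 2 rise and 2 fall at Pd7. Without F1-HHcy Pd3 replicate 3, 7 of the 12 were called higher and 1 lower at Pd3, with a median of 0.93. Theca and steroidogenic markers rose in 8 of 8 at Pd7, with summed levels of 251 to 485 FPKM in F1-Control and 1190 to 1260 FPKM in F1-HHcy. Cyp17a1, 1 of the 8, held 0.837, 0.599 and 9.03 FPKM in F1-Control and passed the filter only with the F1-HHcy libraries. Also at Pd7, 4 of 10 granulosa markers rose, with sums of 284 to 561 FPKM in F1-Control and 594 to 947 FPKM in F1-HHcy. Of 12 oocyte markers 7 fell and 1 rose, with sums of 1400 to 2240 FPKM and 794 to 1330 FPKM. Of 7 markers of the ovarian surface epithelium 5 fell, with sums of 549 to 1020 FPKM and 238 to 446 FPKM, and the 5 erythroid markers tested fell, with sums of 926 to 5800 FPKM and 287 to 503 FPKM. Of 8 tested macrophage markers, 0 were called at Pd3 and 0 at Pd7. Without F1-HHcy replicate 3, 1 of 7 was called higher at Pd3. With all libraries at Pd3, 7 of the 8 lay above equality (median 0.32), and the sums of the list overlapped. At Pd7, 7 of the 8 lay below equality (median -0.42), and 3 met the study's criterion in the downward direction. The list then summed to 97.4 to 143 FPKM in F1-Control and 61.1 to 86.0 FPKM in F1-HHcy, without overlap. Macrophages share Lyve1 and Nrp1 with endothelium, but the list holds neither gene. At Pd21, 6 of 8 oviduct epithelium markers were lower in F1-HHcy, with sums of 120 to 537 FPKM in F1-Control and 15.8 to 32.3 FPKM in F1-HHcy. No marker of these lists was at 0 throughout a group. The part of these shifts in the levels of the 10 genes was not tested.

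**Figure D4:**
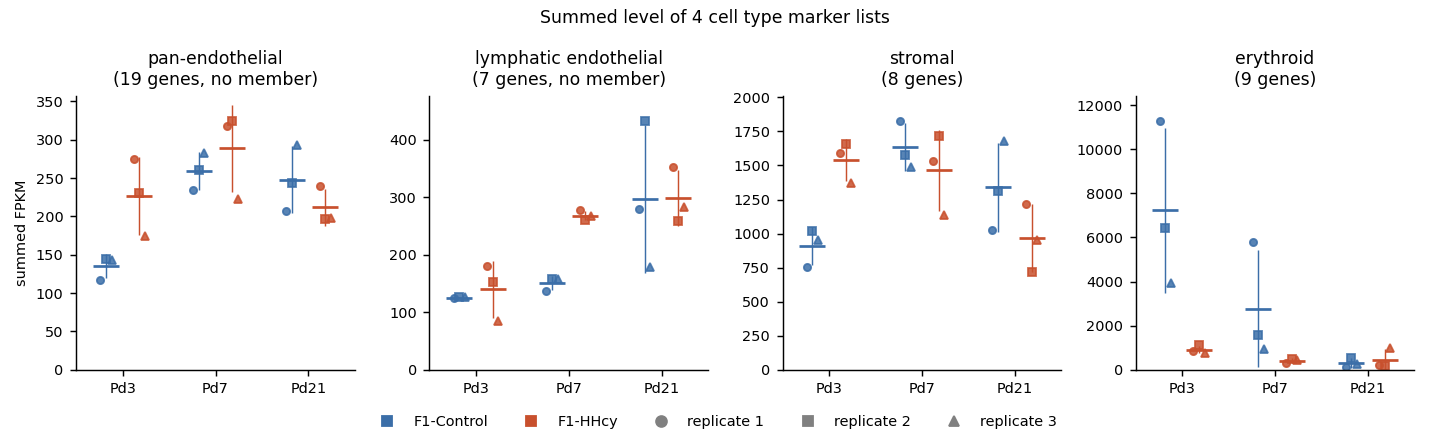
Summed FPKM (y axis) of 4 lists of marker genes by day (x axis) in F1-Control (blue) and F1-HHcy (orange), with a symbol per replicate number, a bar at the mean and a line of ± 1 SD (n = 3). The 19 other endothelial markers lie at 117 to 145 in F1-Control and 174 to 275 in F1-HHcy at Pd3, where the stromal list is also higher and the erythroid list lower in F1-HHcy.

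The genes whose pattern was most like the endothelial members were found with Pearson's r between log2(FPKM + 1) and the mean standardised level of Kdr, Flt1, Tek, Tie1, Pecam1 and Cdh5 over 18 libraries, among 13421 other genes with a mean of at least 1 FPKM. These members did not all share 1 pattern. Over the same libraries Kdr had r of -0.25 with Flt1, -0.16 with Tie1, -0.09 with Pecam1, -0.02 with Cdh5 and 0.29 with Tek. The 10 closest were Lama2 (r = 0.96), Ddr2 (0.93), Cd93 (0.93), Egflam (0.92), Emilin1 (0.92), Tcf21 (0.92), Col4a4 (0.92), Bicc1 (0.92), Sparcl1 (0.92) and Slc29a1 (0.91). Of these, Cd93 is an endothelial surface protein, while Lama2, Ddr2, Emilin1 and Col4a4 code for matrix proteins or their receptors and Tcf21 is a factor of ovarian stroma. After the group means were removed, r was 0.67 to 0.84 for the 10 genes. The libraries share 3 ages and 2 diets, so r is a description over these libraries only.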

How the data were processed

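Whole-ovary RNA was measured with stranded poly-A libraries in 18 samples, 3 per diet and day, grouped by their labels. The submitters' processing notes name FastQC 0.11.9, Trimmomatic 0.39, STAR 2.7.9a, featureCounts 2.0.1 and DESeq2 1.36.0 with GRCm38 (mm10). The strand setting of the counting is not given in the sources used here. For each library the authors deposited a table of gene symbols with 1 number each and no unit. These deposited values were read as FPKM, because 1 length per gene turned 99.989% of 27294 genes into whole fragments (tolerance 0.05). Depth was 33630641 to 39399281 fragments on genes, and Angpt2 had 69 fragments at its lowest.

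Diets were compared within each day with limma 3.58.1 (R 4.3.3) on log2(FPKM + 1) with a variance trend, for genes with at least 1 FPKM in 3 of 6 libraries, and p-values were adjusted over all genes tested (Benjamini-Hochberg). Ages and differences of diet effects came from 1 model of the 18 libraries. The fit was tested on simulated data. The members and lists were chosen with earlier results of these data known. By rule, all 10 members are given in every library, from the other lists the genes with the 3 smallest p of a day or the 2 highest levels, with counts for the rest, and the 10 genes most like the members. Prox1, and genes of the rule on days that it did not select, were named to complete a count or a pathway after their values were seen. Foxl2 was named after its values were seen, to describe 1 library. Alternatives were a pseudocount of 0.1, no filter, 1 model of all libraries, the replicate number as a block, median-ratio scaling, limma-voom on recovered fragments, the study's criterion, and each library left out. Same-numbered libraries of the 2 diets did not deviate together. Tables were made with Python 3.11.15, pandas 2.3.3 and matplotlib 3.10.9.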

Additional observations from a re-analysis of the deposited data

Results flagged for a closer look

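Vegfc was flagged because its diet effect differed between 2 days in a test of the difference itself. The effect at Pd21 minus the effect at Pd7 was -0.82 on the log2(FPKM + 1) scale (SE 0.22, adjusted p = 0.0478, limma with Benjamini-Hochberg adjustment). The call was close to the threshold and was lost with the replicate number as a block (adjusted p = 0.0554), with median-ratio scaling (0.0520), with no filter on low values (0.0720) and without any 1 library (0.065 to 0.121) other than F1-HHcy Pd21 replicate 1 (0.00823). F1-HHcy libraries lay above all F1-Control libraries at Pd7 and overlapped them at Pd21. Pd7 and Pd21 belong to different batches, so age and batch cannot be told apart here.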

How the results depend on the processing

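No member was called at Pd3 under 10 of 13 alternatives. The number called was 4 with all 18 libraries in one model and 7 by the study's criterion, and 0 to 5 when a library was left out. At Pd7 the 4 calls became 1 with no filter on low values and 2 to 4 when a library was left out. Calls between Pd3 and Pd7 ranged from 1 to 5 in F1-Control (1 to 4 without a library, 5 with a pseudocount of 0.1) and from 0 to 4 in F1-HHcy (1 with no filter), and those between Pd7 and Pd21 from 1 to 4 in F1-Control (1 to 3 without a library, 4 with median-ratio scaling, where Tek fell) and from 0 to 3 in F1-HHcy (0 with no filter). The single call on the difference of diet effects between Pd7 and Pd21 went to 0 with no filter, with the replicate block and with median-ratio scaling, and to 0 to 4 without a library. The cause of these changes was not tested.

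The replicate numbers did not pair the libraries, since same-numbered libraries had correlations of deviations from -0.338 to 0.087, and only 1 of 9 correlated best with its own number. With the replicate block, Angpt2 between Pd3 and Pd7 in F1-HHcy had an adjusted p of 0.0577 and the Vegfc difference of effects 0.0554, and the calls over all genes at Pd3 went from 408 to 1, at Pd7 from 1577 to 1874 and at Pd21 from 298 to 345.

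Single members reversed direction in 42 of the alternative values, none of them called. Flt4 at Pd21 was -0.0004 with limma-voom, Vegfa at Pd21 0.0378 with median-ratio scaling, and the difference of diet effects between Pd3 and Pd7 for Flt1 -0.1152 with a pseudocount of 0.1. When each library in turn was left out, the diet difference at Pd7 ran from -0.2337 to 0.1675 for Kdr, -0.0997 to 0.1546 for Tek and -0.0233 to 0.2472 for Pecam1. At Pd21 it ran from -0.0991 to 0.0006 for Flt1, -0.2387 to 0.2890 for Flt4, -0.0055 to 0.2114 for Tek, -0.2927 to 0.0700 for Cdh5, -0.5861 to 0.2832 for Vegfa and -0.2856 to 0.2903 for Angpt2. The change from Pd3 to Pd7 in F1-Control ran from -0.1901 to 0.2110 for Kdr, that from Pd7 to Pd21 in F1-Control from -0.0471 to 0.2501 for Cdh5, and that in F1-HHcy from -0.2407 to 0.0534 for Vegfc and -0.1953 to 0.0495 for Angpt2. The difference of diet effects ran from -0.0801 to 0.1678 for Flt1 and -0.2112 to 0.1111 for Tie1 between Pd3 and Pd7, and from -0.0830 to 0.1720 for Tek between Pd7 and Pd21. Of the other single values under the alternatives, 935 kept direction and side of the threshold, 63 lost the call and 19 gained one.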
